A study of Mus musculus with 3 samples.

Results

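Fully unconverted sites were the cytosines (C) of mouse 1-cell embryo mRNA at which no read had been converted by bisulfite, that is, rows of the deposited embryo list with an m5C level of exactly 100%. There were 551 such sites among the 24996 called sites of the 1-cell embryo, which is 2.20% of the list, and they lay in 516 of its 6407 genes. The lists of the 3 stages together held 40298 distinct sites. The sites were chosen by their measured embryo level, which is given below as a description with no test, whereas the reads of the oocytes, the gene, the bases around the site and the predicted structure were not used by the choice.

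The study followed 5-methylcytosine (m5C) in mRNA from the oocyte to the embryo by RNA bisulfite sequencing of wild-type C57BL/6J mice, with 1 library for each stage and therefore no replicate for any value. The germinal vesicle (GV) oocytes, grown oocytes arrested before meiotic resumption, came from minced ovaries of females of 7 to 8 weeks, 48 h after pregnant mare serum gonadotrophin (PMSG, 10 IU). The metaphase II (MII) oocytes, mature and ready for fertilization, were taken from the oviduct 12 h after 5 IU of human chorionic gonadotrophin (hCG), which followed 10 IU of PMSG by 44 to 48 h. The 1-cell embryos came from females of the same strain and age mated with males of that strain, were flushed 24 h after 5 IU of hCG that followed 5 IU of PMSG by 44 to 48 h, and were about 200 in number. The zona pellucida was removed with hyaluronidase in each stage. Library, conversion protocol and stage cannot be told apart in this design.

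Depth differed between the libraries, with 4475058 reads at the called sites of GV oocytes, 5285011 at those of MII oocytes and 2616279 at those of embryos. The lists held 6, 8 and 10 of 10 oocyte marker genes in that order, and 0, 2 and 0 of 8 cumulus and granulosa cell markers, the 2 being Amh and Cyp19a1. A listed gene has a called m5C site, which is not a measure of its expression. The table that accompanies the study was not the source of these values. Where positions of both could be compared, the oocyte coverage was the same, and the oocyte levels were not compared. The embryo had more reads in that table at most positions, and some of the fully unconverted sites were below full level there. Hence "fully unconverted" describes the deposited embryo list.

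As background, bisulfite deaminates C to uracil, which is read as T, while m5C resists and is read as C, so the share of unconverted reads is taken as the methylation level. NSUN2 and NSUN6 place most m5C in animal mRNA. NSUN2 sites, called Type I, usually have guanines (G) just downstream and lie at the foot of a stem, whereas NSUN6 sites, called Type II, carry the motif CUCNA that starts at the methylated C. The fully grown oocyte and the 1-cell embryo are largely silent in transcription and live on stored maternal mRNA.

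The 10 fully unconverted sites of highest embryo coverage are shown first, since their levels are the most tightly bounded. Each sequence is RNA sense of build GRCm38 from RefSeq, written as DNA, with the site and the 4 bases after it in capitals and 10 bases before and 6 after these.
Thop1 (chr10:81081967-81081987, plus strand, CDS, exon 13 of 13): tcctcctgagCAAGGgtctgc
1500011B03Rik (chr5:114809227-114809247, minus strand, 3′ UTR, exon 2 of 2): gatggccacaCGGGGaagcgc
Mfsd14b (chr13:65112698-65112718, minus strand, 5′ UTR, exon 1 of 12): ctgcggatcgCGGAGcccatg
Tex19.1 (chr11:121147488-121147508, plus strand, CDS, exon 3 of 3): tgcgtgtccgCTGGGtcgtaa
Zfp592 (chr7:81023565-81023585, plus strand, CDS, exon 3 of 10): taatggattcCGGGGctcaga
Esr2 (chr12:76123218-76123238, minus strand, CDS, exon 9 of 10): tgggtgatttCGAAGagtgga
Lrrfip2 (chr9:111118130-111118150, plus strand, 5′ UTR, exon 1 of 15): gccgcagctgCAGCCgctgct
Fbxw20 (chr9:109225950-109225970, minus strand, CDS, exon 5 of 10): aactatcaaaCTGTGggactg
Mtss1 (chr15:59081638-59081658, minus strand, 5′ UTR, exon 1 of 15): ctctgcaaaaCCGGCggcgag
Ccdc14 (chr16:34723600-34723620, plus strand, CDS, exon 13 of 13): gagatctttcCAGCAcgtatg
All 10 were Type I, and each had between 1 and 4 G in the 4 bases after the site.

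The Type II sites of highest embryo coverage among the fully unconverted ones show the other motif, with C-T-C-N-A in the capitals.
Nsd1 (chr13:55312778-55312798, plus strand, CDS, exon 23 of 23): gtggagaaaaCTCCAgcctcc
Fam69b (chr2:26636198-26636218, plus strand, CDS, exon 5 of 5): tcctgcaggcCTCTAcgagga
1810055G02Rik (chr19:3716722-3716742, plus strand, CDS, exon 4 of 4): acagggtgacCTCCAgaactc
Hif1a (chr12:73942051-73942071, plus strand, CDS, exon 12 of 15): gagagcaattCTCCAagccct
Recql5 (chr11:115894679-115894699, minus strand, CDS, exon 15 of 19): gagctggcttCTCCAaaggcc
All 5 lay in coding sequence, and 4 of them carried CTCCA.

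The coverage behind a level of 100% was low at most sites. The fully unconverted sites had a median of 28 reads (quartiles 23 and 41.5, range 20 to 226), against a median of 59 reads at the other embryo sites. Of the 551 sites, 293 (53.2%) had fewer than 30 reads, 112 (20.3%) had at least 50 and 19 (3.45%) had at least 100. A site with 20 of 20 reads unconverted has an exact (Clopper-Pearson) 95% lower bound of 83.2% on its level, and the 226 reads at the Thop1 site set the bound at 98.4%. These bounds cover counting error only, since reads made by PCR without molecular identifiers are not independent molecules.

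Sites with no converted read outnumbered the sites just below them. In the embryo, 551 sites had 0 converted reads, 73 had 1, 41 had 2, 38 had 3 and 54 had 4, after which the number rose again to 274 sites with 10. Among embryo sites with at least 50 reads the first 5 numbers were 112, 16, 4, 8 and 9. The oocytes had no such peak at 0, with 2, 7, 11, 12 and 26 sites with 0 to 4 converted reads in the GV oocyte and 8, 8, 25, 23 and 28 in the MII oocyte. Just outside the limit, the sites with 1 converted read had levels from 95% to 99.5%. The one of highest coverage was in Nfya, a subunit of the CCAAT-binding factor NF-Y, with 190 of 191 reads unconverted in the embryo, 49.8% in the GV oocyte and 69.4% in the MII oocyte. It was followed by 4921524J17Rik with 164 of 165 reads and Gtse1 with 113 of 114.

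The share of sites at 100% was lower at higher coverage in the embryo, apart from a level stretch between 40 and 99 reads. It exceeded that of the oocytes at equal coverage under 200 reads. It was 9.61% of embryo sites with 20 to 24 reads, 5.52% with 25 to 29, 1.23% with 40 to 49, 1.07% with 50 to 74, 1.15% with 75 to 99 and 0.436% with 100 to under 200. With 20 to 29 reads, 293 of 3866 embryo sites were at 100% (7.58%, exact 95% interval 6.76% to 8.46%), against 1 of 954 in the GV oocyte (0.105%) and 6 of 1437 in the MII oocyte (0.418%). With at least 50 reads it was 112 of 14749 embryo sites (0.759%), 0 of 12674 in the GV oocyte, which allows up to 0.0237% (3 counts), and 0 of 15946 in the MII oocyte, which allows up to 0.0188%. With 200 or more reads it was 1 of 2127 embryo sites (0.0470%, exact 95% interval 0.00119% to 0.262%). The oocytes had 0 of 5387 (GV) and 0 of 6322 (MII) there, which allow up to 0.0557% and 0.0475%, so the stages could not be told apart in this class.

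**Figure D1:**
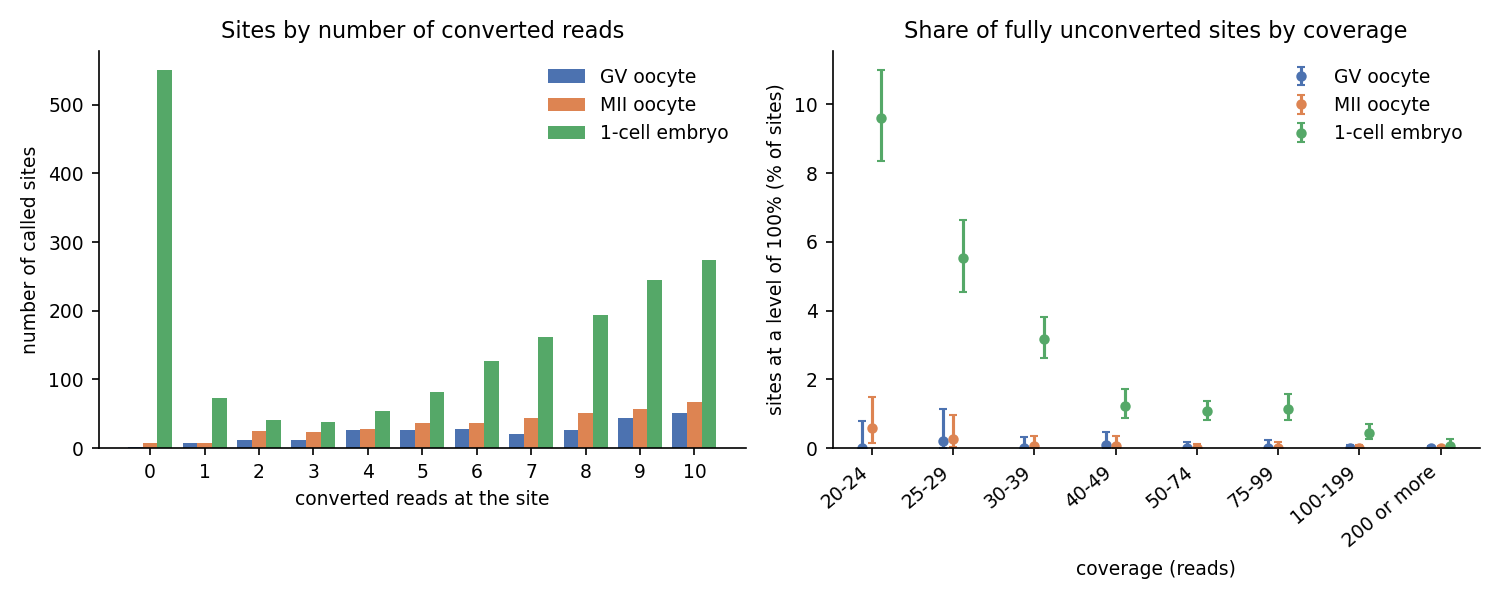
The left panel plots the number of called sites by the number of converted reads (0 to 10) in each stage, and the right panel the percent of sites at a level of 100% by coverage class, with exact 95% intervals as bars. The embryo has 551 sites with 0 converted reads and 73 with 1, and its share at 100% falls from 9.61% at 20 to 24 reads.

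Most fully unconverted sites were already called in the oocytes. The GV oocyte list held 461 of the 551 (83.7%, exact 95% interval 80.3% to 86.7%), against 24.6% of the other embryo sites and 22.0% of them when weighted to the coverage of the fully unconverted sites. The MII oocyte list held 467 (84.8%, 81.5% to 87.7%), against 30.9% and 27.1% for the others. Both lists held 451 sites, 10 were in the GV oocyte list alone, 16 in the MII oocyte list alone and 74 (13.4%) in neither, while 67.8% of the other embryo sites were in neither. A gene with a called oocyte site held 95.8% of the fully unconverted sites and 92.2% of the others, a smaller difference than at the site itself. A site listed in an oocyte brings its own gene into this count. These shares thus partly repeat those above and do not compare the genes alone. The shares at the site itself compare sets of unlike level. The other embryo sites had a median embryo level of 24.2% in genes with a fully unconverted site and 23.2% in the remaining genes. The lists begin at 10%, so a low site that was slightly lower in an oocyte is not listed there. The part of level in these shares was not tested. With embryo levels of 95% or more (658 sites) they were 83.1% (GV) and 85.1% (MII).

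The share called in the oocytes rose with the embryo coverage of the site. In the GV oocyte it was 213 of 293 sites (72.7%) with 20 to 29 embryo reads, 136 of 146 (93.2%) with 30 to 49, 93 of 93 with 50 to 99 and 19 of 19 with 100 or more. For the other embryo sites in the same classes it was 21.6%, 21.8%, 21.2% and 33.9%. All 112 fully unconverted sites with at least 50 embryo reads were thus called in both oocytes. Full level at higher coverage is the stricter choice, and its part in this rise was not tested.

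In the oocytes these sites had high but spread levels. The median over the 461 sites listed in the GV oocyte was 54.5% (rank-based 95% interval 50.8% to 57.4%, quartiles 32.9% and 74.0%), against 19.6% for the other embryo sites listed there. In the MII oocyte the median was 61.5% (57.1% to 65.5%, quartiles 38.5% and 80.5%), against 21.7%. A site not listed has no value and does not enter these medians, and the lists begin at a level of 10%. The levels ranged from 10.2% to 95.1% in the GV oocyte and from 10.7% to 98.4% in the MII oocyte. No fully unconverted embryo site that was listed in an oocyte was thus at 100% there. In the GV oocyte 44 of the 461 sites (9.54%) were under 20%, against 50.9% of the other embryo sites, and 258 (56.0%) were at 50% or more, against 9.49%.

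**Figure D2:**
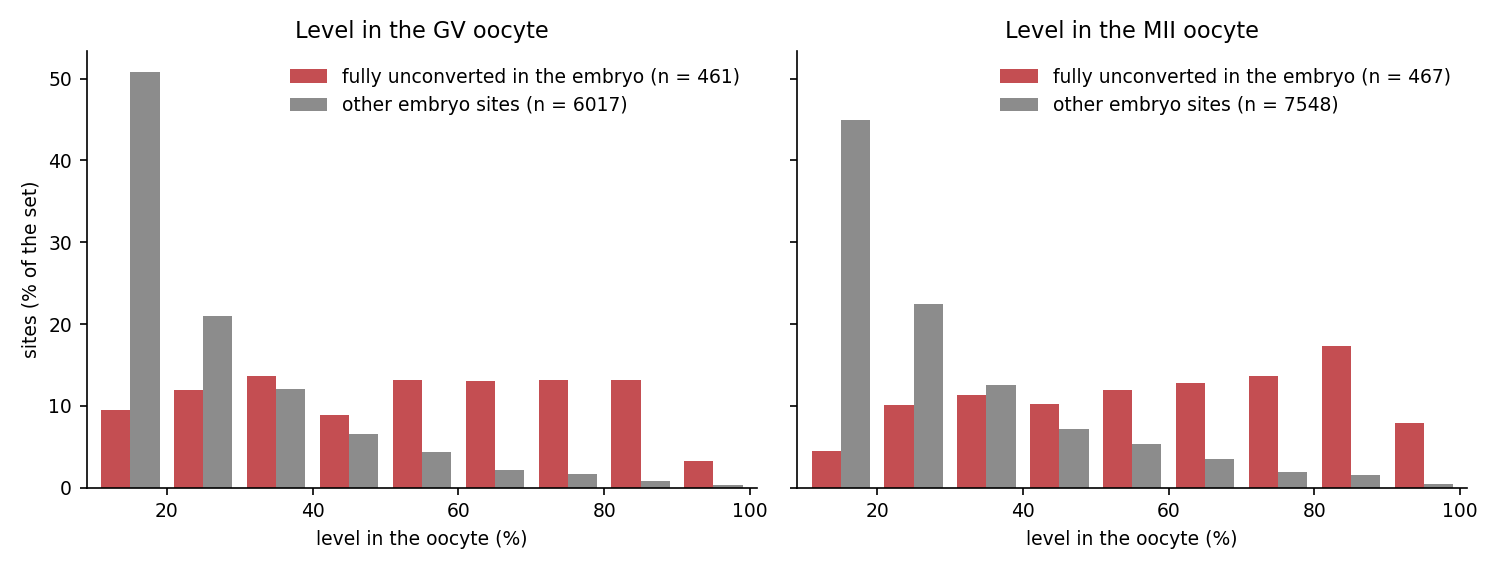
Each panel plots the percent of sites (vertical axis) by level in the oocyte in bins of 10 points (horizontal axis), for the sites fully unconverted in the embryo and for the other embryo sites listed in that oocyte. In the GV oocyte 9.54% of the fully unconverted sites and 50.9% of the others lie under 20%.

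The contrast was largest where the embryo was best covered. The choice is also stricter there, since 20 unconverted reads bound the embryo level at 83.2% and 100 at 96.4%. The part of the choice in this rise was not tested. Among sites with 20 to 29 embryo reads the median GV oocyte level was 43.7% for the fully unconverted sites and 20.6% for the others. With 50 to 99 reads it was 71.9% (95% interval 59.5% to 77.4%) and 19.5%, and with 100 or more 77.9% (61.8% to 84.6%) and 19.2%. The MII oocyte gave 50.3% against 22.6% in the lowest class and 85.9% against 20.7% in the highest.

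Read the other way, the level in the oocyte ordered the share of embryo sites that were fully unconverted. Of 3104 embryo sites at 10% to 20% in the GV oocyte, 44 were at 100% in the embryo (1.42%). The share was 9.34% for sites at 40% to 50% in the GV oocyte, 31.7% at 60% to 70% and 54.5% (61 of 112) at 80% to 90%. It was 40.5% (15 of 37) at 90% to 100%, an interval that overlaps its neighbour. The same order held within each class of embryo coverage. With 50 or more embryo reads the share was 0.0496% for GV oocyte levels of 10% to 20%, 1.40% for 20% to 50%, 13.3% for 50% to 80% and 41.1% for 80% to 100%.

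**Figure D3:**
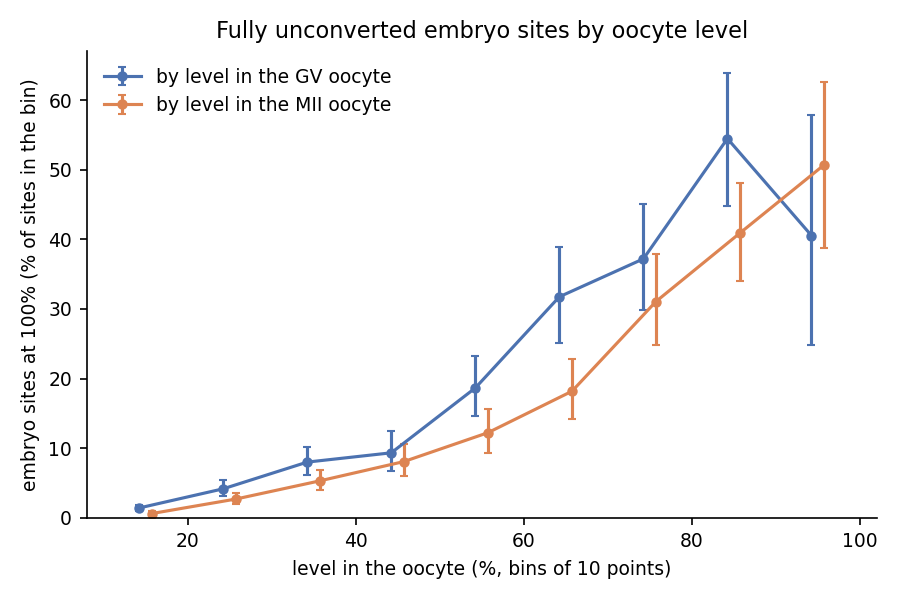
The vertical axis is the percent of embryo sites at a level of 100% and the horizontal axis the level of the same site in the GV or MII oocyte in bins of 10 points, with exact 95% intervals as bars. By GV oocyte level the share goes from 1.42% in the lowest bin to 54.5% at 80% to 90%.

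Among the 10 sites of highest embryo coverage shown above, each was below 100% in both oocytes. The site in Thop1, which encodes a zinc peptidase that cleaves short peptides, had 226 of 226 reads unconverted in the embryo, 351 of 406 (86.5%, exact 95% interval 82.7% to 89.6%) in the GV oocyte and 325 of 356 (91.3%, 87.9% to 94.0%) in the MII oocyte. The 1500011B03Rik site had all 196 reads unconverted in the embryo, 67.4% in the GV oocyte and 83.1% in the MII oocyte. The site in Mfsd14b, a transporter of the major facilitator family, had all 176 reads unconverted, after 80.5% and 81.2% in the oocytes.

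The closest to full level in the oocytes among the 10 was Tex19.1, a germ cell factor that restrains retrotransposons. It had all 172 reads unconverted in the embryo (lower bound 97.9%), 377 of 406 (92.9%) in the GV oocyte and 244 of 254 (96.1%, upper bound 98.1%) in the MII oocyte. The most distant was Mtss1, a membrane-bending actin regulator, with all 131 reads unconverted in the embryo, 252 of 455 (55.4%) in the GV oocyte and 359 of 536 (67.0%) in the MII oocyte. Fbxw20, an F-box protein that would select targets of a ubiquitin ligase, had 143 embryo reads and levels of 61.8% and 73.5% in the oocytes.

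The remaining ones lay between. Zfp592, a zinc finger protein, had 165 embryo reads and went from 74.0% in the GV to 87.0% in the MII oocyte. Esr2, the estrogen receptor beta, had 148 embryo reads and went from 74.1% to 86.7%. Lrrfip2, which acts in Wnt signalling, had 148 embryo reads and levels of 84.6% and 89.3%. Ccdc14, a protein of centriolar satellites, had 122 embryo reads and levels of 79.9% and 91.8%.

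**Figure D4:**
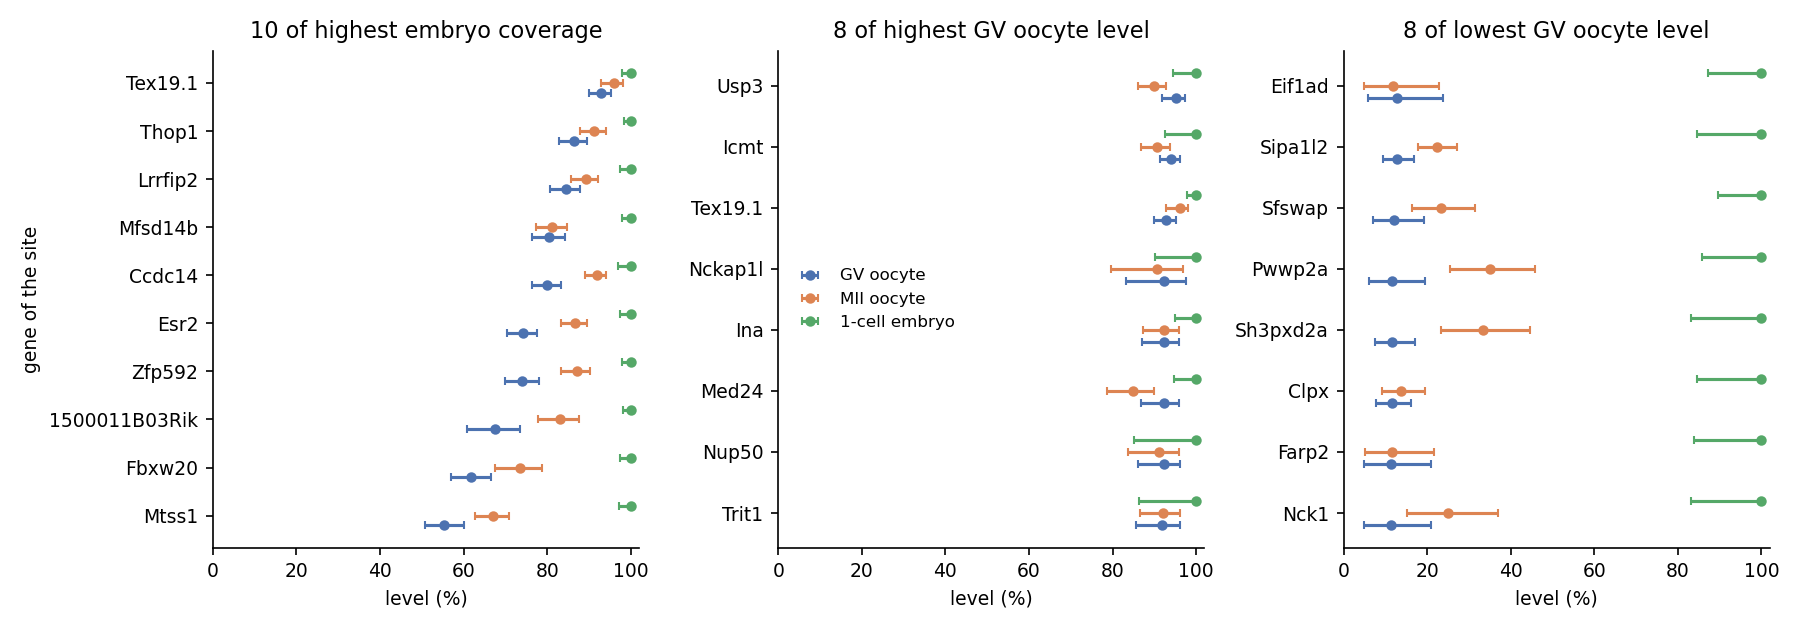
Level (horizontal axis, %) of single sites in the GV oocyte, MII oocyte and embryo, named by gene on the vertical axis, with exact 95% intervals as bars. The left panel holds the 10 sites of highest embryo coverage, the middle panel the 8 of highest GV oocyte level (91.9% to 95.1%) and the right panel the 8 of lowest (11.3% to 12.9%).

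At the upper end, 8 sites were chosen for the highest GV oocyte levels. Both their embryo and their GV oocyte levels were thus set by the choice, and the MII oocyte level was not. Among the 394 fully unconverted sites with at least 50 reads in both oocytes, the highest GV oocyte level was in Usp3, a histone deubiquitinase, with 271 of 285 reads (95.1%), 292 of 325 (89.8%) in the MII oocyte and 64 of 64 in the embryo. Icmt, which methylates prenylated proteins, had 94.1% of 438 reads in the GV oocyte, 90.7% of 301 in the MII oocyte and all 48 in the embryo. Nckap1l, Ina, Med24, Nup50 and Trit1 had GV oocyte levels between 91.9% and 92.4%. Of these, Med24, a Mediator subunit, was lowest in the MII oocyte at 84.9% of 172 reads. None of the 8, Tex19.1 included, passed the test between the oocytes described below. The sequences of the first 2 both have CGGG in the capitals.
Usp3 (chr9:66592947-66592967, minus strand, 5′ UTR, exon 1 of 15): tgcccagtgcCGGGTcagaag
Icmt (chr4:152303520-152303540, plus strand, 3′ UTR, exon 5 of 5): ccaggatgctCGGGAgaggtg

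At the other end, the 8 sites of lowest GV oocyte level among those with at least 50 reads in both oocytes lay between 11.3% and 12.9% there, and their embryo coverage was 20 to 34 reads. Sfswap, a splicing regulator, had 15 of 124 reads (12.1%, exact 95% interval 6.93% to 19.2%) in the GV oocyte, 30 of 129 (23.3%) in the MII oocyte and 34 of 34 in the embryo (lower bound 89.7%). Pwwp2a, a reader of H2A.Z nucleosomes, had 12 of 103 (11.7%), 32 of 91 (35.2%) and 24 of 24. Sipa1l2, a Rap GTPase regulator, had 43 of 334 (12.9%), 74 of 332 (22.3%) and 22 of 22.

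Clpx, the unfoldase of a mitochondrial protease, had 28 of 244 reads (11.5%) in the GV oocyte, 26 of 190 (13.7%) in the MII oocyte and 22 of 22 in the embryo. Sh3pxd2a, a scaffold of podosomes, had 11.6% of 189, 33.3% of 81 and 20 of 20. Farp2, Nck1 and Eif1ad had GV oocyte levels of 11.3%, 11.3% and 12.9% and embryo coverage of 21, 20 and 27 reads. The embryo lower bounds of these 8 ran from 83.2% to 89.7%, and both their embryo and their GV oocyte levels were set by the choice. The sequences of 4 of them are given for comparison with the highly covered sites.
Sfswap (chr5:129571068-129571088, plus strand, 3′ UTR, exon 18 of 18): gacggcagccCCGGAgcagcc
Pwwp2a (chr11:43705632-43705652, plus strand, CDS, exon 2 of 2): gaccctaaatCAGGAgacatc
Clpx (chr9:65294434-65294454, plus strand, 5′ UTR, exon 1 of 14): gctgagccccCTCGAtcctca
Nck1 (chr9:100546059-100546079, minus strand, 5′ UTR, exon 1 of 4): cgtgcggtaaCGGCAtccggg

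The levels of the fully unconverted sites moved upwards between the oocytes, as did those of the other sites. Over the 451 sites listed in both oocytes the median difference, MII minus GV, was 7.98 percentage points (95% interval 6.87 to 9.05), with 360 sites higher and 90 lower in the MII oocyte. It was 5.60 points for the other embryo sites and 4.87 over all shared sites. Each of the 12954 sites shared by the oocytes was compared with a two-sided Fisher's exact test on its reads, adjusted by Benjamini-Hochberg over all of them, a test of these 2 libraries and not of the stages. At an adjusted p under 0.05, 128 of the 451 were higher in the MII oocyte (28.4%, 24.3% to 32.8%) and 13 were lower (2.88%, 1.54% to 4.88%). Over all shared sites the shares were 19.6% higher and 0.965% lower, and over the other shared sites listed in the embryo 31.2% and 0.878%. The share of higher calls was thus near that of other embryo sites. The share of lower calls was above theirs, but these sets are not alike in room to fall. Of the sites listed in the GV oocyte, the fully unconverted ones had a median of 54.5% there and the other embryo sites 19.6%. The lists begin at 10%, so a low site that falls can leave the MII oocyte list. The part of the starting level in these shares was not tested. With reads divided by 5, 1 of the 451 fully unconverted sites was called higher (0.222%) and 0 lower. Over all shared sites 87 were called higher (0.672%) and 3 lower (0.0232%). Over the other shared sites listed in the embryo it was 82 of 5694 (1.44%) and 3 (0.0527%). At this setting the share of higher calls was thus below that of the other embryo sites. Their exact 95% intervals overlapped, reaching up to 1.23% for the fully unconverted sites and beginning at 1.15% for the others. These sets also differ in depth. The median GV coverage was 159 reads at the fully unconverted shared sites and 295 at the others, and the median MII coverage 134 and 254. The part of depth in the shares of calls was not tested.

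The highest rises from GV to MII oocyte among called sites were in genes of varied function. Trim13, a ubiquitin ligase of the endoplasmic reticulum, had 75 of 132 reads (56.8%) unconverted in the GV oocyte and 83 of 89 (93.3%) in the MII oocyte, with 50 of 50 in the embryo (Fisher's exact test, adjusted p = 5.12e-08). Glis3, a zinc finger transcription factor, went from 48.4% of 64 reads to 88.4% of 69 (exact, adjusted p = 1.55e-05), with 35 of 35 in the embryo. Foxk1, a forkhead factor, went from 22.2% of 81 to 60.7% of 89 (exact, adjusted p = 1.29e-05), with 26 of 26 in the embryo.

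Ap3m2, an adaptor subunit of vesicle coats, went from 12 of 40 reads to 16 of 22 (exact, adjusted p = 0.0118). Pramef17, of a family with near-identical copies whose reads may be shared, went from 21 of 42 to 39 of 45 (exact, adjusted p = 0.00388).

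The largest falls among the 13 sites called lower in the MII oocyte were again in genes of varied function. Gsk3b, the kinase that marks beta-catenin for destruction, had 121 of 166 reads (72.9%) in the GV oocyte, 53 of 133 (39.8%) in the MII oocyte and 20 of 20 in the embryo (exact, adjusted p = 4.67e-07). Ccni, cyclin I, had 116 of 204 (56.9%), 57 of 219 (26.0%) and 50 of 50 (exact, adjusted p = 6.32e-09). Fkbp5, a co-chaperone of steroid receptors, had 46.0% of 139, 19.4% of 309 and 21 of 21 (exact, adjusted p = 5.77e-07).

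Acadm, which begins the oxidation of medium-chain fatty acids, had 64.0% of 25 reads in the GV oocyte and 31.8% of 88 in the MII oocyte, with 25 of 25 in the embryo. Slc41a1, a magnesium transporter, had 50.8% of 65 and 23.9% of 67, with 33 of 33 in the embryo. The Type II site of Hif1a, the oxygen-sensing transcription factor, was also among the sites called lower, with 66.3% of 303 reads in the GV oocyte, 48.8% of 289 in the MII oocyte and 52 of 52 in the embryo (exact, adjusted p = 0.000328). The sequences of a pair of sites called lower, Gsk3b and Ccni, and of Trim13, called higher, differ in the bases after the site.
Gsk3b (chr16:38241284-38241304, plus strand, 3′ UTR, exon 11 of 11): gttgcagatgCCAGCttagga
Ccni (chr5:93182925-93182945, minus strand, 3′ UTR, exon 7 of 7): gctgactactCGGGGtgagac
Trim13 (chr14:61605311-61605331, plus strand, CDS, exon 3 of 3): tcaaagtaatCAAGGaaactc

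The 74 sites listed in neither oocyte were thinly covered in the embryo, with a median of 22 reads and at most 47, and 68 of them had fewer than 30. Of the 74, 51 were in genes with another called site in an oocyte and 23 were not. Absence from a list can stand for a level under 10%, fewer than 20 reads or another filter, and these cannot be told apart here. The highest embryo coverage was 47 reads in Eif4e2, a cap-binding repressor of translation, then 34 in Mad2l2, a HORMA protein of DNA repair and the spindle checkpoint, 33 in Spata20, 32 in Anks4b and 30 in Tmc4. Their Type I sites had a mean of 2.13 G (SD 0.909, n = 71) in the 4 bases after the site, against 2.33 (SD 0.814, n = 460) for those listed in an oocyte.

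Most genes with a fully unconverted site had just 1. This was so in 482 genes, while 33 had 2 and Gpr27 had 3. Gpr27, an orphan receptor with a single exon, had 23, 24 and 23 reads at its sites in transcript order, and none was listed in an oocyte. The last pair lay 14 nt apart, so that their reads can be shared and the sites are not independent.
Gpr27 site of 23 reads (chr6:99692832-99692852, plus strand, CDS): ctgcaccgcgCGCCGtactac
Gpr27 site of 24 reads (chr6:99692931-99692951, plus strand, CDS): gcggcggccgCGGCGgggacg
Gpr27 second site of 23 reads (chr6:99692945-99692965, plus strand, CDS): ggggacgccgCCGGGcgcgct
The unconverted background of the Gpr27 gene was 2.37%, against a median of 0.608% for the genes of the fully unconverted sites.

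Fully unconverted sites lay near each other in 10 pairs within 50 nt, in Pip5k1c, Slc11a2, Srf, Syt7, Polr1b, Madd, Gpr27, Rfx1, Clpx and Cul5. In some of these the oocyte levels of the neighbours differed. In Clpx, the sites 9 nt apart had 22 reads each in the embryo, but 11.5% and 73.8% in the GV oocyte and 13.7% and 77.8% in the MII oocyte. In Madd, a Rab3 exchange factor, sites 13 nt apart had 79.0% and 37.6% in the GV oocyte. In Srf, the serum response factor, sites 49 nt apart had 75.5% and 23.3% in the GV oocyte and 85.7% and 46.9% in the MII oocyte. In Pip5k1c, a kinase that makes a membrane phosphoinositide, sites 8 nt apart were close, with 30.0% and 33.9%.

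Another fully unconverted site lay within 50 nt of 3.63% of the fully unconverted sites (20 of 551, exact 95% interval 2.23% to 5.55%) and of 0.646% of the other embryo sites, or 0.957% when weighted to the same coverage. The 20 sites form the pairs above, so both sites of each pair are counted. Neighbours can share reads, whereas the interval treats sites as independent. The 158 other called embryo sites within 50 nt of a fully unconverted site are below 100% by definition. They had a median embryo level of 29.5% (quartiles 19.7% and 44.1%), and 127 of them (80.4%) were under 50%. Of the 516 genes, 431 had other called embryo sites and 85 had none. These 2705 other sites had a median level of 24.2%, near the 23.2% of sites in genes without a fully unconverted site.

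The genes were widely spread over functions, which were described with 19 gene lists and read against the 2.20% of embryo sites that were fully unconverted. Among regulators of transcription, 20 of 750 sites in chromatin modifiers and remodelers (2.67%) and 19 of 516 in zinc finger genes (3.68%) were fully unconverted. The Nsd1 site, in a histone H3 lysine 36 methyltransferase, had 94 embryo reads and went from 77.4% to 88.5% in the oocytes. Smarcd2, a SWI/SNF subunit, had 87 embryo reads and oocyte levels of 78.1% and 87.6%, and both sites were called higher in the MII oocyte. Kdm6b, which removes methyl groups from histone H3 lysine 27, had 82 embryo reads, 56.8% in the GV oocyte and 68.0% in the MII oocyte, and was called higher too. Ep400, a remodeler that deposits histone variants, had 74 embryo reads and levels of 80.2% and 83.9%, which did not pass the test.

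Genes of RNA metabolism had 9 of 482 sites in translation factors and mRNA decay (1.87%), 13 of 378 in splicing factors and RNA helicases (3.44%) and 1 of 161 in ribosomal proteins (0.621%). Cpeb3, which binds the cytoplasmic polyadenylation element, had 99 embryo reads, 87.0% of 384 reads in the GV oocyte and 94.3% of 297 in the MII oocyte. Edc4, a scaffold of decapping, had 88 embryo reads and oocyte levels of 80.2% and 87.1%. Exosc8, an exosome subunit, had 63 embryo reads and rose from 34.3% to 56.2%. All 3 were called higher in the MII oocyte. Rbm28, a nucleolar RNA-binding protein, had 53 embryo reads, 86.0% in the GV oocyte and 79.0% in the MII oocyte, a difference that was not called. The ribosomal site was in Mrps10, of the mitochondrial ribosome, with 40 embryo reads, 26 of 35 reads in the GV oocyte and 9 of 22 in the MII oocyte, not called.

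Genes of division had 12 of 384 sites in cell cycle and meiosis (3.13%), 12 of 576 in microtubule, motor and centrosome genes (2.08%) and 5 of 354 in DNA replication, repair and cohesin (1.41%). Cenpf and Cenpe, both of the kinetochore, had 80 and 52 embryo reads. The Cenpf site had 77.5% of 1159 reads in the GV oocyte and rose to 88.0% of 823 reads in the MII oocyte (exact, adjusted p = 7.09e-08), and Cenpe from 78.7% to 87.9%. Anapc15, a subunit of the anaphase-promoting complex, had 51 embryo reads and rose from 38.5% to 65.5%. Cdk13, a kinase of RNA polymerase II, had 39 embryo reads and rose from 34.5% to 57.1%. Espl1, the separase that cuts cohesin, had 36 embryo reads and levels of 73.4% and 81.2%, not called. Myo19, the myosin of mitochondria, had 2 such sites, one with 73 embryo reads that was called higher (71.3% to 85.6%) and one with 40 that was not (84.6% to 89.1%). Msh6, of mismatch repair, had 47 embryo reads and rose from 51.3% to 70.1%.

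Genes of protein turnover had 16 of 799 sites in ubiquitin ligases (2.0%) and 7 of 379 in deubiquitinases and the proteasome (1.85%). Usp19 had 121 embryo reads and rose from 818 of 1087 reads (75.3%) to 815 of 960 (84.9%). Usp54 had 47 embryo reads and rose from 74.6% to 89.9%, and Psme4, a proteasome activator, had 48 and rose from 54.0% to 69.0%. Cbl, a ligase that turns over receptor kinases, had 62 embryo reads and levels of 76.1% and 73.2%, not called.

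Genes of traffic, transport and signalling gave 21 of 773 sites in vesicle traffic (2.72%), 13 of 424 in solute carriers (3.07%), 11 of 598 in kinases (1.84%), 2 of 338 in protein phosphatases (0.592%), 4 of 244 in Wnt, Notch and TGF-beta signalling (1.64%) and 5 of 286 in adhesion and extracellular matrix (1.75%). Tbc1d1, a Rab regulator, had 92 embryo reads and rose from 81.7% to 92.9%. Copb2, a COPI coat subunit, had 86 embryo reads and levels of 72.3% and 73.8%, and Slc16a10, an aromatic amino acid transporter, had 98 and levels of 83.9% and 79.0%. Pak4, a kinase of the cytoskeleton, had 116 embryo reads and levels of 83.6% and 89.8%. Lrp5, a Wnt co-receptor, had 67 embryo reads and levels of 81.2% and 83.3%. None of these last 4 was called. Lama5, a laminin chain, had 2 sites, of which the one with 29 embryo reads rose from 48.6% to 65.5%.

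Oocyte and maternal-effect genes had 2 of 195 sites at full level (1.03%, exact 95% interval 0.124% to 3.66%, which holds the share of the whole list), both in Patl2, an oocyte RNA-binding repressor of translation, and each with 20 embryo reads. One had 79.0% of 167 reads in the GV oocyte and 90.8% of 98 in the MII oocyte, not called, and the other was in neither oocyte list. Mitochondrial respiration and import had 2 of 150 (1.33%), namely Timm44 with 97 embryo reads and oocyte levels of 33.8% and 44.1%, and Polrmt, the mitochondrial RNA polymerase, with 68 and levels of 82.6% and 84.7%. Genes with RIKEN or Gm names had 19 of 747 (2.54%). In all, 189 fully unconverted sites lay in a gene of some list, of 8269 embryo sites there. No list was tested for its share.

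The bases after the site were richer in G than at other embryo sites. Over the 531 Type I sites the mean number of G in the 4 bases after the site was 2.31 (SD 0.829), against 1.97 (SD 0.917) at the other Type I embryo sites, 1.95 when these were weighted to the same coverage, and 0.962 over the 577621 C of the same transcripts outside CUCNA. A G stood at the second base after the site in 70.1% (exact 95% interval 66.0% to 73.9%) against 60.9% at the other sites and 29.9% over all C. The share with 3 G was 37.1% against 24.8%, and the share with 0 G was 0.753% (4 sites) against 5.31%. T directly after the site was rarer, at 6.03% against 10.4%.

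The G content was also compared at equal oocyte level. Among sites of 10% to 20% in the GV oocyte the fully unconverted Type I sites had a mean of 2.14 G (SD 0.743, n = 43) and the other embryo sites 2.20 (SD 0.858). Between 20% and 50% the means were 2.23 and 2.25. Between 50% and 80% they were 2.47 (SD 0.807, n = 171) and 2.37 (SD 0.883), and from 80% on 2.36 (SD 0.718, n = 72) and 2.45 (SD 0.713). The sign of the difference thus varied between these classes, and it was not tested.

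The predicted structure showed more pairing just after the site. In minimum free energy structures of windows that reached 50 nt to either side of the site, the 4 bases after the site were paired in 73.7% (SD 32.1 over 551 sites), against 66.4% at the other embryo sites. At equal GV oocyte level, the mean share of these 4 bases paired was 67.6% at fully unconverted and 69.7% at other sites of 10% to 20%. It was 75.2% and 70.1% from 20% to 50%, 73.5% and 70.7% from 50% to 80%, and 74.7% and 76.7% from 80% on, so the contrast was smaller there and turned in the lowest and highest class. Over all sites, all 4 were paired at 47.2% of the fully unconverted sites and 32.7% of the others. Pairing was lower at the second base before the site, at 43.4% (exact 95% interval 39.2% to 47.6%) against 50.2%, and higher at the ninth base before it, at 70.2% (66.2% to 74.0%) against 60.4%.

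**Figure D5:**
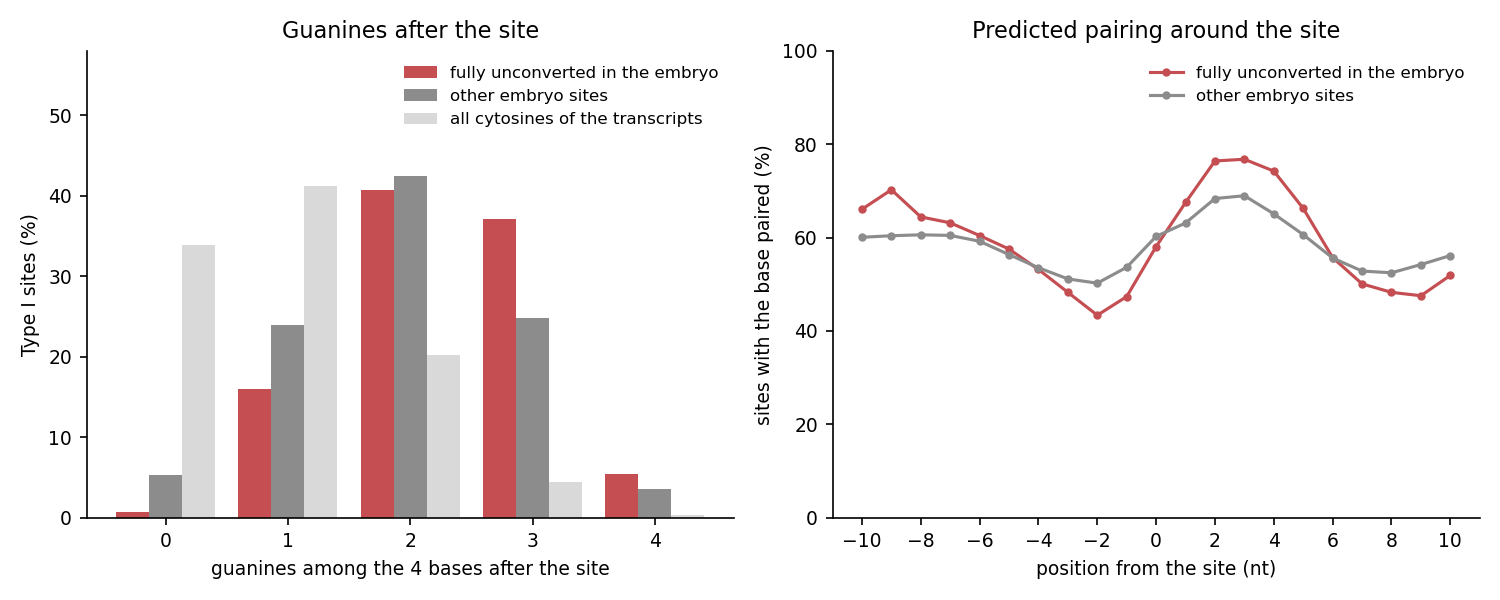
The left panel plots the percent of Type I sites with 0 to 4 guanines in the 4 bases after the site, for fully unconverted sites, other embryo sites and all C of the transcripts. The right panel plots the percent of sites with a paired base at each position from 10 before to 10 after the site, where the fully unconverted sites are at 76.4% and the others at 68.4% at the second base after it.

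The share of Type II sites among the fully unconverted sites did not differ from the rest of the list beyond its interval, with 20 of 551 (3.63%, exact 95% interval 2.23% to 5.55%) against 3.44%. They had a median of 25 embryo reads and at most 94. Of the 20, 16 were listed in the GV oocyte with a median level of 69.6% (range 11.5% to 83.7%) and 17 in the MII oocyte with 77.1% (13.7% to 94.0%). The Type I sites had medians of 53.8% and 61.1%. In the GV oocyte the sites shown above had 77.4% in Nsd1, 69.8% in Fam69b, 78.1% in 1810055G02Rik, 66.3% in Hif1a and 82.9% in Recql5, a helicase of DNA repair. Pole, the catalytic subunit of a replicative polymerase, and Dhx35, an RNA helicase, held further Type II sites with 26 and 28 embryo reads.

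Within the transcript, 371 sites (67.3%, exact 95% interval 63.2% to 71.2%) were in the CDS, 71 (12.9%, 10.2% to 16.0%) in the 5′ UTR, 98 (17.8%, 14.7% to 21.2%) in the 3′ UTR, 10 in other exons and 1 in no exon of its gene. The other embryo sites weighted to the same coverage had 70.3%, 10.4% and 17.1% in the first 3, all inside these intervals. The median GV oocyte level was 53.6% in the CDS, 55.4% in the 5′ UTR and 60.4% in the 3′ UTR. Sites of the 5′ UTR had the most G after Type I sites, with a mean of 2.53, against 2.29 in the CDS and 2.21 in the 3′ UTR.

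The unconverted background of the gene, recovered from the deposited p-value, had a median of 0.608% (quartiles 0.434% and 0.838%, highest 2.69%) over the 516 genes, against 0.351% (0.226% and 0.528%) over genes of the other sites. Whether this rate includes the reads at called sites is not given in the sources used here. A gene on the opposite strand overlapped 10.7% of the sites (exact 95% interval 8.25% to 13.6%) against 8.13% of the others, or 8.51% of them at the same coverage. Within 5 nt of an internal exon edge lay 4.17% (2.66% to 6.20%) against 5.67%. The shares of the others at the same coverage were inside both intervals. The part of the gene background in the levels was not tested.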

How the data were processed

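The authors trimmed reads with cutadapt 1.13 and Trimmomatic 0.36 and aligned them to converted mouse genome (mm10, GRCm38) and transcriptome with HISAT2 and Bowtie2 2.2.9. The labels name polyadenylated RNA and the methods of the study RNA depleted of ribosomal RNA. The doses of hCG and PMSG and the range of ages also differ between labels and methods, and the label values are given. Coverage was deposited as a count, namely of the C and T reads at a site. The m5C level was deposited as a fraction, given here in percent, and the unconverted reads are their product. The deposited p-value is a binomial test against the unconverted rate of the gene, from which that rate was recovered. The lists held sites with 20 or more reads, a level of 10% or more and 5 or more unconverted reads, so a low-covered site needed more than 10%.

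The sites, gene lists and rules were chosen with earlier results of these data known. Named sites were the 10 of highest embryo coverage, the 8 of lowest and 8 of highest GV oocyte level with at least 50 reads in both oocytes, the 5 largest differences each way among called sites, genes with 3 sites, up to 4 sites per gene list, the 5 of highest coverage in neither oocyte and the 5 Type II sites of highest coverage. Pairs of neighbours and Nfya, 4921524J17Rik and Gtse1 were named after their values were seen. Symbols, exons and regions came from GENCODE release M21, with CDS before 5′ UTR before 3′ UTR where transcripts differ. Structures used RNAfold of ViennaRNA 2.7.2 at 37 °C, and other steps scipy 1.17.1, pandas 2.3.3, numpy 2.4.6, matplotlib 3.10.9 and pysam 0.24.0 under Python 3.11.15. Intervals of shares are exact (Clopper-Pearson) at 95%. The Fisher test and the rate recovery were tested on simulated data. The other embryo sites were weighted to the coverage of the fully unconverted ones by coverage class.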

Additional observations from a re-analysis of the deposited data

How the results depend on the processing

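With 1 library per stage no value has a replicate check, and the coverage of the embryo limits how firmly full level can be told from a level slightly below it. No paired analysis was possible because the labels give no replicate numbers and each stage has 1 library. Taking levels of 95% or more gave 658 sites, and neither this nor 1 site per gene moved a value beyond its interval. Requiring 50 embryo reads left 112 sites and 100 reads left 19, and at either limit all of these sites were listed in both oocytes. Their median GV oocyte levels were 74.1% and 77.9% and their median MII oocyte levels 79.0% and 85.9%. The share in the 5′ UTR was 9.82% at 50 reads and 26.3% at 100. At 100 reads the share of Type II sites was 0%, that of the CDS 52.6%, the mean number of G 2.42 and the pairing after the site 84.2%. Placing 3′ UTR before 5′ UTR before CDS gave 57.0% in the CDS and 26.9% in the 3′ UTR, and windows of 61 nt gave 67.8% pairing, against 62.1% at the other embryo sites. With all reads divided by 5, 1 site was called higher and 0 lower in the MII oocyte, against 128 and 13 of 451. The test has fewer reads at this setting. A minimum of 50 reads in both oocytes left 394 sites, of which 129 were called higher (32.7%) and 12 lower (3.05%). Over all shared sites these shares were then 24.5% and 1.01%. Of the 5474 other shared sites listed in the embryo, 1832 were called higher (33.5%) and 52 lower. In all, 33 of the alternative values stayed within the limits and 21 moved.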

Other observations

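The oocytes had 10 sites at full level, and none of them was listed in the embryo, which was so for most oocyte sites. In the GV oocyte these were Cpne5 with 28 of 28 reads and Mypop with 47 of 47, which had 76.5% and 93.9% in the MII oocyte. In the MII oocyte they were Gm11346, Senp1, Kcnk18, Lurap1l, Tmem175, Wasf3, Ank1 and Tlr9, with 21 to 40 reads each. Of these, Senp1, a SUMO protease, had the lowest GV oocyte level at 54.3% of 35 reads, and Tmem175, a lysosomal potassium channel, the highest at 97.0% of 33. As background, of the 15910 sites of the GV oocyte list the embryo list held 461 fully unconverted and 6017 other sites. Of the 20694 sites of the MII oocyte list it held 467 and 7548.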
